A study of Mus musculus with 2 samples.

Results

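The epidermal differentiation complex is a run of genes on mouse chromosome 3 that encode the proteins of the hardened outer layer of skin and, at its edges and within it, the S100 calcium-binding proteins. The genes described here were the rows of the deposited gene table on chromosome 3 whose symbol begins with S100a, Sprr or Lce, together with Lor, Ivl, Flg2, Crnn, Hrnr, Tchh, Tchhl1, Rptn, Prr9, Pglyrp3 and Pglyrp4. They numbered 60 of 23997 gene rows and lay between positions 90511034 and 93564645 of chromosome 3 in build mm10, a span of 3.05 Mb. Flg, Sprr2a1 and Sprr2a3 were not analysed here.

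Polyadenylated RNA was sequenced, with paired ends, from epithelial cells of the mouse thymic medulla (mTECs) that carried much MHC class II and were sorted by flow cytometry from pooled mice, in 2 libraries. One library was labelled Aire-KO, with the genotype Aire-/-, and the other WT, and both were from C57BL/6 thymus. The sources used here do not give the number, age and sex of the mice or the Aire allele. With a single library for each genotype there is no spread between animals or libraries, no difference has a replicate check, and no p-value is given for a difference between genotypes.

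The transcript of the targeted gene was higher in the Aire-KO-labelled library. Aire, on chromosome 10, stood at 640.2 FPKM in the Aire-KO-labelled library and 220.6 FPKM in the WT-labelled library, where FPKM is the number of fragments scaled by transcript length and by library size. This value sums over the full length of the gene's transcripts, so a deleted part cannot be seen in it, and directions are given below by library label. Of 10 mTEC markers, 9 stood within 2-fold between the libraries and 1, Aire, was higher. These ratios compare the libraries and do not check the cell label. H2-Aa, an MHC class II chain, reached 11948 FPKM in the Aire-KO-labelled library and 8398 FPKM in the WT-labelled library, against 0.626 FPKM (labelled Aire-KO) and 1.95 FPKM (labelled WT) for Ptprc, the common leukocyte antigen. An estimated 54100000 fragments stood behind the Aire-KO-labelled library and 46900000 behind the WT-labelled library. The bound for a transcript with no fragment was set at the level of 3 fragments and covers counting error only. For a transcript of 2000 bp this level was 0.0303 FPKM (labelled Aire-KO) and 0.0349 FPKM (labelled WT).

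S100 proteins are small proteins with paired EF-hand calcium-binding motifs that change shape on binding calcium and then bind partner proteins. In skin, loricrin, involucrin, the small proline-rich (Sprr) proteins and the late cornified envelope (Lce) proteins are cross-linked by transglutaminases into the cornified envelope beneath the cell membrane of dying keratinocytes, and the S100 fused-type proteins, which carry an S100 domain before long repeats, are tied to keratin filaments and to the envelope. In the thymus, some mTECs of the medulla take on a keratinocyte-like state and are found in Hassall's corpuscles, and Aire is known for driving the expression of genes of peripheral tissues in mTECs.

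Most genes of the complex were lower in the Aire-KO-labelled library, and the exceptions were S100a genes at its ends and Crnn. The terms lower and higher mark a 2-fold difference in log2((FPKM in the Aire-KO-labelled library + 0.1)/(FPKM in the WT-labelled library + 0.1)), applied where the mean of both libraries reached 0.5 FPKM. No test stands behind them, and the added 0.1 understates the difference of low genes. Of the 60 genes, 57 reached the mean, 45 were lower, 4 were higher and 8 were neither. Over all 15906 genes measured, 20.5% were lower and 7.09% were higher. The 57 genes had a median log2 ratio of -3.51, against 0.05 over all genes measured. At a 4-fold difference 43 were lower and 1 was higher, against backgrounds of 11.9% and 0.629% of all genes measured. In the Aire-KO-labelled library, 13 of the 57 were listed at 0, against 1.62% of all genes measured, and none of the 60 was listed at 0 in the WT-labelled library. Over the 44 genes above 0 in both libraries the median was -2.96, and with the listed zeros set to the level of 3 fragments it was -3.43. Of the 57 genes, 26 were under 0.5 FPKM in the Aire-KO-labelled library and reached the mean only through the WT-labelled library, so these had to differ. Without the minimum, 47 of the 60 were lower and 4 higher.

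**Figure D1:**
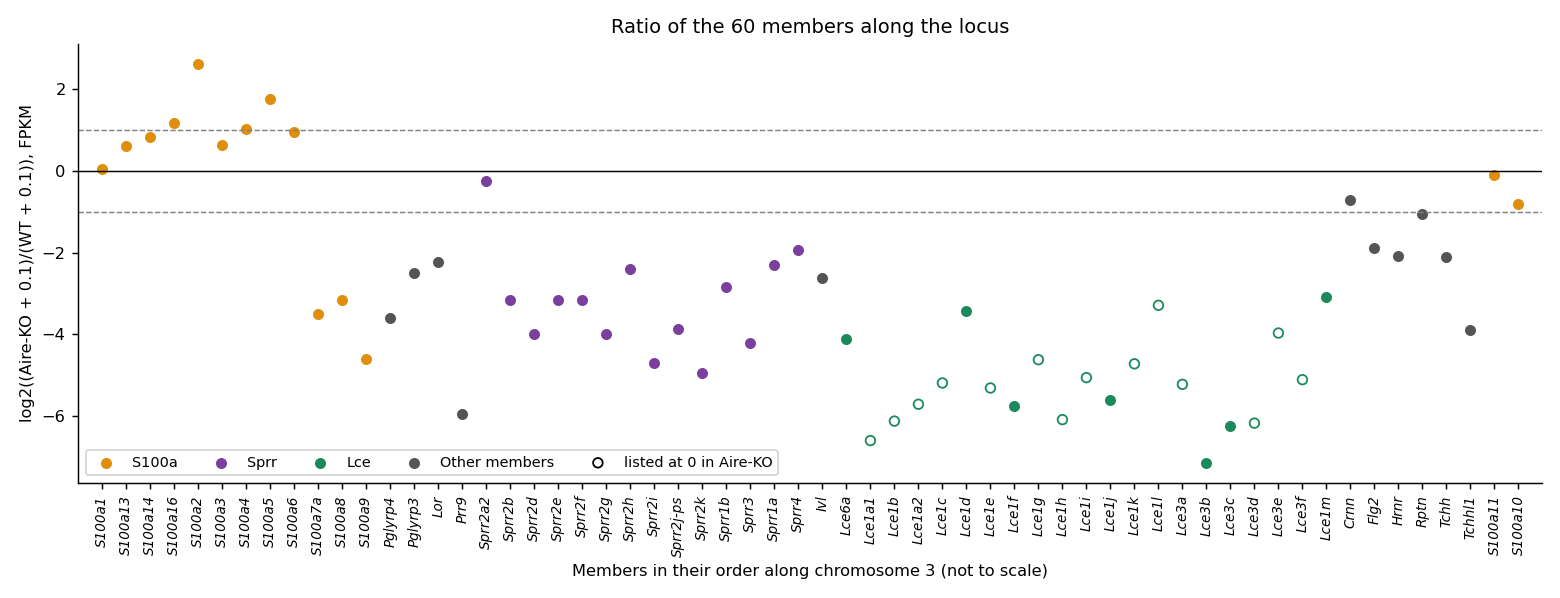
Log2 ratio (Aire-KO-labelled library over WT-labelled library, with 0.1 FPKM added) of each of the 60 genes in order along chromosome 3, coloured by family. The first 9 S100a genes sit above 0, and from S100a7a to S100a10 every point lies below 0. Open points are listed at 0 in the Aire-KO-labelled library, and dashed lines mark 2-fold.

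The sign of the ratio followed position in the complex. The first 9 genes, S100a1, S100a13, S100a14, S100a16, S100a2, S100a3, S100a4, S100a5 and S100a6, held 4 higher genes and no lower one, with a median log2 ratio of 0.96. Their summed level was 6120 FPKM in the Aire-KO-labelled library and 3448 FPKM in the WT-labelled library, 1.77-fold higher. The next 49 rows, S100a7a to Tchhl1, held 46 measured genes, of which 45 were lower and 1, Crnn, was neither, with a median of -3.99, or -3.88 with zeros at the level of 3 fragments. The last 2 genes, S100a11 and S100a10, were neither. This division into runs was made after the values were seen and describes them only.

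**Figure D2:**
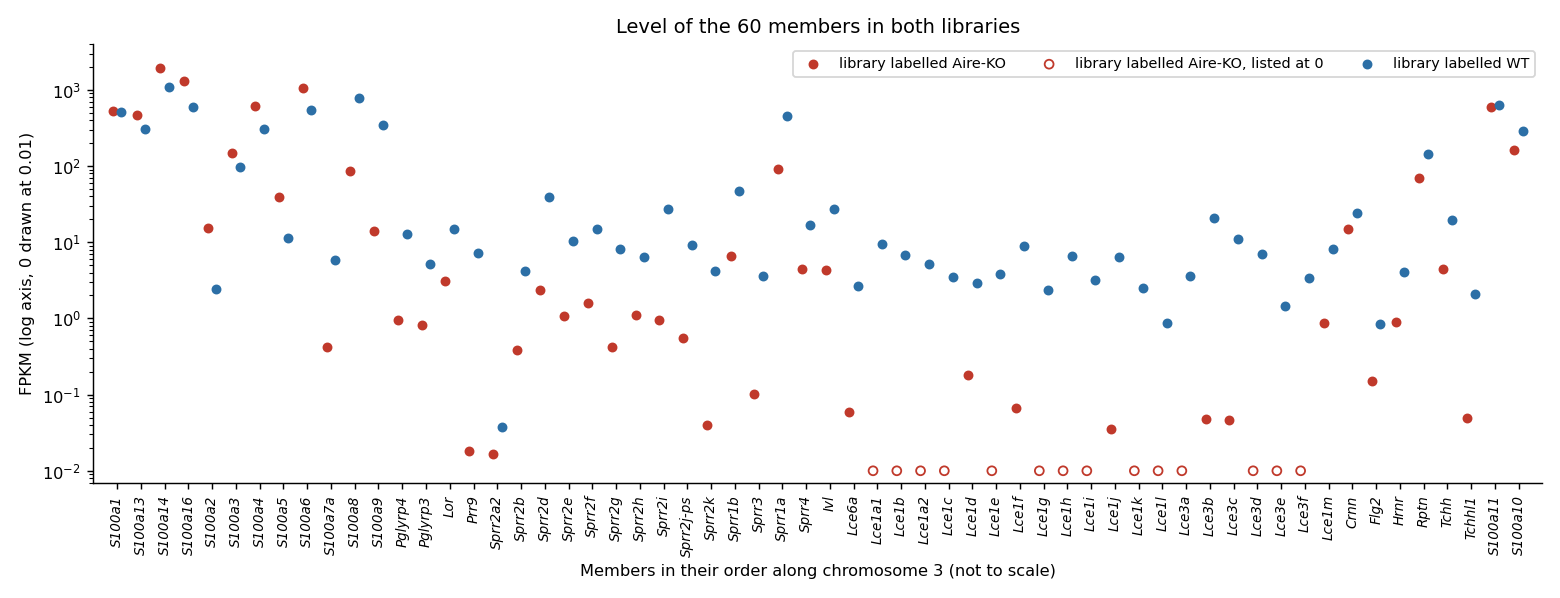
Level in FPKM on a log axis of every gene of the complex in order along chromosome 3, in the libraries labelled Aire-KO and WT. Of the first 9 genes all but S100a2 stand above 11 FPKM in both libraries, and the Lce genes in the middle are below 1 FPKM or listed at 0 in the Aire-KO-labelled library.

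Despite the number of lower genes, the complex as a whole held a like amount of RNA in both libraries. The 60 genes summed to 7190 FPKM in the Aire-KO-labelled library and 6525 FPKM in the WT-labelled library. This was 1.30% of all FPKM in the Aire-KO-labelled library and 1.25% in the WT-labelled library. The S100a family carried most of it, with 6977 FPKM in the Aire-KO-labelled library and 5496 FPKM in the WT-labelled library. The 46 genes outside the S100a family summed to 212.7 FPKM in the Aire-KO-labelled library and 1029 FPKM in the WT-labelled library, 4.84-fold lower.

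Stretches upstream of 7 start sites are shown because the families that were lower together, Sprr, Lce and the envelope gene Lor, differ in the promoter elements their sequences hold, and S100a6 and S100a8 are S100a genes on either side of the change in sign. Sequences are from RefSeq, assembly GRCm38.p6, each 230 bases from 220 bases before the annotated start to 10 bases after it, 5′ to 3′ on the gene's strand. Capitals mark matches on either strand to TATAAA, the TATA box core, and TGANTCA, the core that AP-1 factors bind. S100a6 is at chr3:90612674-90612903, S100a8 at chr3:90668851-90669080, Sprr2d at chr3:92338920-92339149 and Lce3b at chr3:92932759-92932988, all on the plus strand. Lor is at chr3:92083133-92083362, Sprr1b at chr3:92438770-92438999 and Lce1a1 at chr3:92648298-92648527, all on the minus strand.
S100a6: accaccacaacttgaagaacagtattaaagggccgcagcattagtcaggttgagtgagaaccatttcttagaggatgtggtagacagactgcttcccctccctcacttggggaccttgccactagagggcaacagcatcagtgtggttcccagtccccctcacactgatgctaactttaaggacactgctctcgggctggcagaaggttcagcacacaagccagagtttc
S100a8: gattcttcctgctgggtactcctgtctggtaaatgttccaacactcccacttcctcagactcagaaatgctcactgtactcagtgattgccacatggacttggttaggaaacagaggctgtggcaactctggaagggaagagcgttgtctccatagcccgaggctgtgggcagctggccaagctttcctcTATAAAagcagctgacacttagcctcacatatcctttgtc
Lor: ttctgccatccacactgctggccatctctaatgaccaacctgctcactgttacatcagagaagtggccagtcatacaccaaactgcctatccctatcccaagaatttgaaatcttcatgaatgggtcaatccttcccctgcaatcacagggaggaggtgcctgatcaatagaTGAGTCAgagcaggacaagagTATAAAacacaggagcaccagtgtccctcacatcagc
Sprr1b: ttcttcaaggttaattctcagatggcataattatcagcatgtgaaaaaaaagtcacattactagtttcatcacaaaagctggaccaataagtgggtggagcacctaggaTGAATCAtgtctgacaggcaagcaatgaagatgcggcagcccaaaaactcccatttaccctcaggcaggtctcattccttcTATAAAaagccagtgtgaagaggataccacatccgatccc
Sprr2d: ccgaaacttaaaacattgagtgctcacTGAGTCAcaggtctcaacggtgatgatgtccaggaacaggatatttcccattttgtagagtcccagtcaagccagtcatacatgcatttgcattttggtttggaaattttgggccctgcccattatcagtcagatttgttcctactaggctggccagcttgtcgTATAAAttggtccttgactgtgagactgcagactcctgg
Lce1a1: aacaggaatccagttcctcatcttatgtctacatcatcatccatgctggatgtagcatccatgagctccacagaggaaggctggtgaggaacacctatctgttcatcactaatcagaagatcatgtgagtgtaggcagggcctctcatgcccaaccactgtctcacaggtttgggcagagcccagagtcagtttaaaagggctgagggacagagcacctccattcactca
Lce3b: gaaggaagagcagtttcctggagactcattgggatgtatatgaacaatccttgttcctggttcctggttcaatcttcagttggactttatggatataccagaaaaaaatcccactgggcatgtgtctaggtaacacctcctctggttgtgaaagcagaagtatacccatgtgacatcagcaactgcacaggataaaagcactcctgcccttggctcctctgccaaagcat

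A promoter entry of 300 bases, 250 before the start to 50 after it, was found for 52 of the 60 genes. There was none for S100a14, S100a2, Pglyrp4, Pglyrp3, Sprr2g, Sprr2j-ps, Lce1f and S100a10. TATAAA occurred in 23 of the 52 (44.2%), against 12.9% of 16686 promoters of the table, and TGANTCA in 18 (34.6%), against 7.25%. Both strands were searched, and each motif was counted on its own even where matches overlap. A TATAAA beginning 20 to 40 bases before the start was found in 19 of the 52 (36.5%), against 2.80% of all promoters. Among all 2335 lower genes with an entry, 18.2% held TATAAA and 11.9% held TGANTCA.

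The families were unlike one another. TATAAA was present in 10 of 12 Sprr promoters and TGANTCA in 9 of 12, and Lor, Ivl and Prr9 each held both motifs. Of 20 Lce promoters, 4 held TATAAA and none held TGANTCA. In the printed Lce1a1 and Lce3b stretches no capitals appear, while Sprr1b and Sprr2d hold 1 match to each motif. Only exact matches were counted. Near the start, Lce1a1 holds tttaaa and Lce3b holds gataaa, each 1 letter from TATAAA. Of 11 S100a promoters, 3 held TATAAA, among them S100a8, and 2 held TGANTCA. Members were poor in CpG, with a median observed over expected CpG of 0.096 against 0.589 over all promoters, and 0.214 for S100a promoters. A match is a description of letters in this window and not of a bound site.

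**Figure D3:**
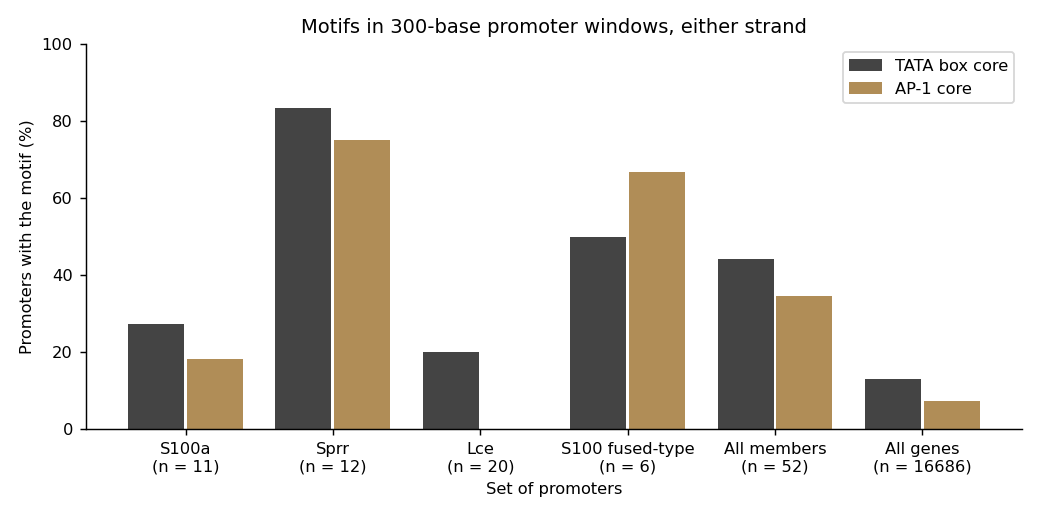
Percent of promoters (250 bases before to 50 after the start) with the TATA box core or the AP-1 core, for S100a, Sprr, Lce and S100 fused-type genes, all members and all promoters of the table. Sprr promoters stand at 83.3% and 75%, Lce promoters at 20% and 0%, and all promoters at 12.9% and 7.25%.

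Of the 14 S100a genes, 4 were higher in the Aire-KO-labelled library, 3 were lower and 7 were neither. Over all genes measured, 7.09% were higher and 20.5% were lower. S100a16, a widely expressed member, stood at 1325 FPKM in the Aire-KO-labelled library and 589 FPKM in the WT-labelled library, a log2 ratio of 1.17 with a 95% interval of 1.15 to 1.19. Such intervals are exact conditional binomial intervals of the FPKM ratio without a pseudocount, taken from estimated fragments, and cover counting error only. S100a2 stood at 15.5 FPKM in the Aire-KO-labelled library and 2.44 FPKM in the WT-labelled library, a log2 ratio of 2.62, the only gene of the complex more than 4-fold higher. Its transcript of 315 bp was too short for a fragment estimate. S100a5, whose protein binds calcium, zinc and copper, stood at 38.8 FPKM in the Aire-KO-labelled library and 11.4 FPKM in the WT-labelled library (log2 ratio 1.76, interval 1.502 to 2.052).

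S100a4, also known as metastasin and known to bind non-muscle myosin, was just inside the 2-fold line. It stood at 616 FPKM in the Aire-KO-labelled library and 304 FPKM in the WT-labelled library, a log2 ratio of 1.02. The ratio was 0.94 with both libraries scaled to the same FPKM total and 0.96 with ratios centred on the median of all genes, so it was no longer past the line under either. Of its 100-base windows, 50.9% also occur in the overlapping gene Gm42674, so its reads may be split. S100a6, or calcyclin, was just outside the line at 1055 FPKM in the Aire-KO-labelled library and 543 FPKM in the WT-labelled library, a log2 ratio of 0.96.

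The other S100a genes within 2-fold were abundant. S100a14 was the most abundant in both libraries, at 1916 FPKM in the Aire-KO-labelled library and 1084 FPKM in the WT-labelled library. S100a13, which takes part in the release of growth factors that lack a signal peptide, stood at 472 FPKM in the Aire-KO-labelled library and 308 FPKM in the WT-labelled library, and S100a3, known from hair cuticle, at 149 FPKM (labelled Aire-KO) and 95.7 FPKM (labelled WT). S100a1, known from heart and skeletal muscle, was close to equal at 532 FPKM in the Aire-KO-labelled library and 511 FPKM in the WT-labelled library. At the far end, S100a11 stood at 592 FPKM in the Aire-KO-labelled library and 631 FPKM in the WT-labelled library, and S100a10, the annexin A2 partner, at 164 FPKM (labelled Aire-KO) and 287 FPKM (labelled WT), a log2 ratio of -0.80. Of the S100a11 windows, 34.0% are shared with the pseudogene Gm12854 on chromosome 4.

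The 3 lower S100a genes adjoin each other. S100a8 and S100a9 encode the subunits of calprotectin, a metal-binding antimicrobial protein of neutrophils and of stressed keratinocytes. S100a8 stood at 87.0 FPKM in the Aire-KO-labelled library and 781 FPKM in the WT-labelled library, a log2 ratio of -3.17 (interval -3.25 to -3.09). S100a9 stood at 13.9 FPKM in the Aire-KO-labelled library and 343 FPKM in the WT-labelled library, a log2 ratio of -4.61 (interval -4.81 to -4.44). S100a7a, the mouse relative of psoriasin, stood at 0.420 FPKM in the Aire-KO-labelled library and 5.81 FPKM in the WT-labelled library, from an estimated 25 and 303 fragments. The subunits did not differ by the same factor, since S100a8 was 6.25 times S100a9 in the Aire-KO-labelled library and 2.28 times in the WT-labelled library.

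Ranked within the 14 S100a genes, S100a8 was the tenth in the Aire-KO-labelled library and the second in the WT-labelled library. S100a9 was the 13th in the Aire-KO-labelled library and the seventh in the WT-labelled library, and S100a4 was the fourth in the Aire-KO-labelled library and the ninth in the WT-labelled library. The ratio of S100a6 to S100a8 was 12.1 in the Aire-KO-labelled library and 0.694 in the WT-labelled library. The S100a9 transcript NM_009114 was listed at 0 in the Aire-KO-labelled library and stood at 51.2 FPKM in the WT-labelled library, 14.9% of the gene there, beside 13.9 FPKM (labelled Aire-KO) and 291.5 FPKM (labelled WT) of NM_001281852. For S100a14, by contrast, NM_025393 made up 83.3% of the gene in the Aire-KO-labelled library and 84.99% in the WT-labelled library.

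**Figure D4:**
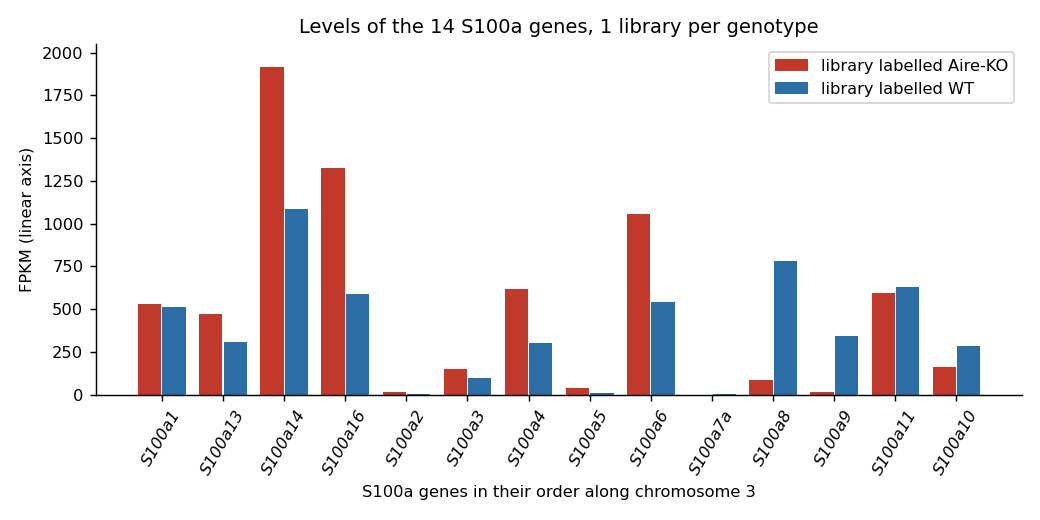
Level in FPKM on a linear axis of the 14 S100a genes, with the Aire-KO-labelled library beside the WT-labelled library. S100a8 and S100a9 stand far lower in the Aire-KO-labelled library, and S100a16 and S100a4 stand more than 2-fold higher there. The bars of S100a7a, S100a2 and S100a5 are short in both.

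Most measured markers of neutrophils, which hold much S100a8 and S100a9, were lower, as were these 2 genes. Of 15 neutrophil markers, 14 had a row and 9 were measured, of which 7 were lower, Il1r2 was higher and Mmp9 was neither. Over all genes measured, 20.5% were lower and 7.09% were higher. Mmp9 stood at 44.6 FPKM (labelled Aire-KO) and 31.4 FPKM (labelled WT). Mpo, Ngp and Retnlg were under 0.5 FPKM in the Aire-KO-labelled library and reached the minimum only through the WT-labelled library, so these had to differ. The 14 summed to 155.9 FPKM in the Aire-KO-labelled library and 425.3 FPKM in the WT-labelled library, and Elane and Fpr1 were listed at 0 in the Aire-KO-labelled library. Lcn2, a siderophore-binding protein that epithelia also make, stood at 22.2 FPKM in the Aire-KO-labelled library and 165.0 FPKM in the WT-labelled library. Il1r2, a decoy receptor of interleukin 1, stood at 81.9 FPKM (labelled Aire-KO) and 32.2 FPKM (labelled WT). Ltf (lactoferrin) stood at 0.853 FPKM (labelled Aire-KO) and 61.2 FPKM (labelled WT), and Mpo (myeloperoxidase) at 0.241 FPKM (labelled Aire-KO) and 21.5 FPKM (labelled WT). Their part in the S100a8 and S100a9 difference was not tested. In bulk RNA, fewer cells of a type and less RNA per cell cannot be told apart.

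Markers of other cell types were read in the same way. Of 8 measured dendritic cell and macrophage markers 5 were lower, with list sums of 496 FPKM in the Aire-KO-labelled library and 740 FPKM in the WT-labelled library. Of 6 thymocyte markers 2 were lower with list sums of 12.3 FPKM (labelled Aire-KO) and 20.1 FPKM (labelled WT). Of 3 Schwann cell markers 2 were lower with sums of 1.33 FPKM (labelled Aire-KO) and 6.75 FPKM (labelled WT). Of 3 measured fibroblast and endothelial markers 2 were lower. All 4 of that list summed to 7.76 FPKM (labelled Aire-KO) and 19.4 FPKM (labelled WT). None of 5 cortical epithelial markers was lower or higher. The part of these cells in any difference was not tested.

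The small proline-rich proteins act as cross-bridges in the cornified envelope, and all 13 measured Sprr genes were lower, with a median log2 ratio of -3.16. Sprr1a was the most abundant gene of the complex outside the S100a family, at 92.7 FPKM in the Aire-KO-labelled library and 454 FPKM in the WT-labelled library (log2 ratio -2.29, interval -2.35 to -2.24). Sprr1b, whose promoter is printed above, stood at 6.50 FPKM in the Aire-KO-labelled library and 46.8 FPKM in the WT-labelled library (log2 ratio -2.83). Sprr3, prominent in oesophagus, stood at 0.101 FPKM in the Aire-KO-labelled library and 3.63 FPKM in the WT-labelled library, from an estimated 6 fragments in the Aire-KO-labelled library. Sprr4 stood at 4.40 FPKM (labelled Aire-KO) and 17.0 FPKM (labelled WT), a log2 ratio of -1.93, with a transcript of 231 bp, too short for a fragment estimate.

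The Sprr2 genes are a tandem array of near relatives, and 9 of 9 measured were lower. Together the 10 Sprr2 rows summed to 8.54 FPKM in the Aire-KO-labelled library and 124.3 FPKM in the WT-labelled library. Sprr2d was the highest at 2.38 FPKM in the Aire-KO-labelled library and 39.3 FPKM in the WT-labelled library (log2 ratio -3.99), and is the gene whose promoter is printed above. Sprr2i, the next in the WT-labelled library, stood at 0.949 FPKM (labelled Aire-KO) and 27.2 FPKM (labelled WT), a log2 ratio of -4.70. Each of the others was lower as well. Sprr2f stood at 1.60 FPKM (labelled Aire-KO) and 15.1 FPKM (labelled WT), and its neighbour Sprr2e at 1.08 FPKM (labelled Aire-KO) and 10.5 FPKM (labelled WT). Sprr2g stood at 0.422 FPKM (labelled Aire-KO) and 8.26 FPKM (labelled WT), and Sprr2j-ps, annotated as a pseudogene by its symbol, at 0.550 FPKM (labelled Aire-KO) and 9.32 FPKM (labelled WT). Sprr2h and Sprr2k had the highest and the lowest ratio. Sprr2h stood at 1.12 FPKM (labelled Aire-KO) and 6.31 FPKM (labelled WT), the highest ratio of the measured Sprr2 genes (log2 ratio -2.39). Sprr2b stood at 0.384 FPKM (labelled Aire-KO) and 4.22 FPKM (labelled WT). Sprr2k rested on 1 estimated fragment in the Aire-KO-labelled library, with 0.0393 FPKM there and 4.17 FPKM in the WT-labelled library, and its log2 FPKM ratio of -6.73 has a counting interval of -12.05 to -4.21.

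Sprr2a2 was below the minimum, and its value depends on which copy is read. Its gene row, 0.0164 FPKM in the Aire-KO-labelled library and 0.0377 FPKM in the WT-labelled library, equals that of the transcript copy NM_001164787 at position 92215835. The copy at the gene row's own position, 92250647, was listed at 1.34 FPKM in the Aire-KO-labelled library and 0.0188 FPKM in the WT-labelled library. It was the only 1 of the 60 genes whose row did not equal the sum of its transcripts within 1 percent, and 92.8% of its windows are shared with Sprr2a1.

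The late cornified envelope genes had the lowest ratios among the large families. The 20 measured of 21 rows were lower by more than 4-fold, and 13 of them were listed at 0 in the Aire-KO-labelled library. Their median log2 ratio was -5.27, or -4.24 with zeros at the level of 3 fragments. Of the 20, 19 reached the minimum only through the WT-labelled library. The 21 rows summed to 1.30 FPKM in the Aire-KO-labelled library and 121.0 FPKM in the WT-labelled library. The Lce1 group summed to 1.15 FPKM in the Aire-KO-labelled library and 71.1 FPKM in the WT-labelled library, over 14 genes. The Lce3 group, whose human relatives are linked to the response of skin to barrier damage, summed to 0.094 FPKM (labelled Aire-KO) and 47.3 FPKM (labelled WT) over 6 genes.

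Listed at 0 in the Aire-KO-labelled library were, with their level in the WT-labelled library, Lce1a1 at 9.59 FPKM, Lce3d at 7.10 FPKM, Lce1b at 6.86 FPKM and Lce1h at 6.69 FPKM. Lce1a2 at 5.13 FPKM, Lce1e at 3.87 FPKM, Lce3a at 3.63 FPKM and Lce1c at 3.55 FPKM were next. Lce3f at 3.35 FPKM, Lce1i at 3.23 FPKM, Lce1k at 2.54 FPKM, Lce1g at 2.36 FPKM and Lce3e at 1.46 FPKM completed the 13. For Lce1a1 the level of 3 fragments, set here as the bound for a count of 0, was 0.104 FPKM. Together with Lce1l, which was below the minimum at 0 FPKM in the Aire-KO-labelled library and 0.877 FPKM in the WT-labelled library, these genes rested on 21 to 241 estimated fragments in the WT-labelled library.

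The Lce genes that had a value in the Aire-KO-labelled library rested on few fragments. Lce1m, which lies beyond the Lce3 genes and apart from the other Lce1 genes, had the most, with 0.861 FPKM from 33 fragments in the Aire-KO-labelled library and 8.06 FPKM in the WT-labelled library. Lce3b stood at 0.0472 FPKM in the Aire-KO-labelled library and 20.6 FPKM in the WT-labelled library, and Lce3c at 0.0468 FPKM (labelled Aire-KO) and 11.1 FPKM (labelled WT), each from 1 fragment in the Aire-KO-labelled library. Lce1d, with 5 fragments in the Aire-KO-labelled library, stood at 0.182 FPKM (labelled Aire-KO) and 2.93 FPKM (labelled WT). The remaining values came from 1 or 2 fragments and are close to the level of none. Lce1f stood at 0.0675 FPKM (labelled Aire-KO) and 8.95 FPKM (labelled WT), Lce1j at 0.0349 FPKM (labelled Aire-KO) and 6.46 FPKM (labelled WT), and Lce6a at 0.0594 FPKM (labelled Aire-KO) and 2.66 FPKM (labelled WT). For Lce3b the log2 FPKM ratio of -8.77 has a counting interval of -14.08 to -6.29. Lce3c, Lce3d, Lce3e and Lce3f share 24.1% to 43.0% of their windows with other genes, mostly each other, so their split is less certain than their sum.

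Lor, Ivl and Prr9 were lower. Loricrin, encoded by Lor, is the main protein of the envelope, and stood at 3.08 FPKM in the Aire-KO-labelled library and 14.8 FPKM in the WT-labelled library (log2 ratio -2.23, interval -2.46 to -2.07). Involucrin, encoded by Ivl, is the scaffold laid down first, and stood at 4.38 FPKM in the Aire-KO-labelled library and 27.2 FPKM in the WT-labelled library (log2 ratio -2.61, interval -2.79 to -2.49). Prr9 stood at 0.0182 FPKM in the Aire-KO-labelled library, from 1 fragment, and 7.25 FPKM in the WT-labelled library, with a counting interval of -13.95 to -6.15 for its log2 FPKM ratio.

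Of the 5 measured S100 fused-type genes 4 were lower, with a median log2 ratio of -2.09. Repetin, encoded by Rptn, was the most abundant, at 69.5 FPKM in the Aire-KO-labelled library and 144 FPKM in the WT-labelled library, a log2 ratio of -1.05 just inside the 2-fold line. Crnn (cornulin) stood at 14.9 FPKM in the Aire-KO-labelled library and 24.4 FPKM in the WT-labelled library, a log2 ratio of -0.71 with an interval of -0.82 to -0.60, and was neither. Trichohyalin, encoded by Tchh and known from the inner root sheath of hair, stood at 4.45 FPKM (labelled Aire-KO) and 19.3 FPKM (labelled WT), and hornerin, encoded by Hrnr, at 0.885 FPKM (labelled Aire-KO) and 4.09 FPKM (labelled WT), each with a log2 ratio of -2.09. Tchhl1 stood at 0.0486 FPKM in the Aire-KO-labelled library, from 5 fragments, and 2.12 FPKM in the WT-labelled library. Flg2 was below the minimum at 0.152 FPKM (labelled Aire-KO) and 0.834 FPKM (labelled WT). The 6 fused-type genes, Flg2 among them, together stood at 89.9 FPKM in the Aire-KO-labelled library and 194.7 FPKM in the WT-labelled library.

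Pglyrp3 and Pglyrp4 encode secreted peptidoglycan recognition proteins that bind bacterial cell walls. Pglyrp3 stood at 0.825 FPKM in the Aire-KO-labelled library and 5.11 FPKM in the WT-labelled library (log2 ratio -2.49). Pglyrp4 stood at 0.968 FPKM in the Aire-KO-labelled library and 12.9 FPKM in the WT-labelled library, with a log2 ratio of -3.61 and an interval of -4.04 to -3.45 without the pseudocount. Its transcript NM_207263 was listed at 0 in the Aire-KO-labelled library and made up 22.5% of the gene in the WT-labelled library. Outside the complex, Pglyrp1, stored in neutrophil granules, was lower, at 99.3 FPKM in the Aire-KO-labelled library and 557 FPKM in the WT-labelled library, and Pglyrp2 stood at 60.8 FPKM (labelled Aire-KO) and 99.4 FPKM (labelled WT).

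Measured genes inside the complex that the choice by symbol did not take in were lower too. Of 9 further rows between S100a1 and S100a10, 6 were measured and all 6 were lower, against 20.5% of all genes measured, with a median log2 ratio of -4.30, or -3.84 with the listed zero at the level of 3 fragments. Of the 6, 5 were under 0.5 FPKM in the Aire-KO-labelled library and reached the minimum only through the WT-labelled library, so these had to differ. Of these, 9130204L05Rik, named S100a7l2 in RefSeq, was listed at 0 in the Aire-KO-labelled library and stood at 3.84 FPKM in the WT-labelled library. Kprp, a keratinocyte proline-rich protein, stood at 0.108 FPKM in the Aire-KO-labelled library and 6.38 FPKM in the WT-labelled library, and 2310050C09Rik at 0.411 FPKM (labelled Aire-KO) and 13.9 FPKM (labelled WT). The 3 with the highest ratios were Smcp at 0.334 FPKM (labelled Aire-KO) and 1.17 FPKM (labelled WT), Crct1 at 9.58 FPKM (labelled Aire-KO) and 89.7 FPKM (labelled WT) and Gm4858 at 0.0915 FPKM (labelled Aire-KO) and 2.63 FPKM (labelled WT).

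The other genes of cornification, on other chromosomes or outside these families, were read from lists. Of 22 measured genes of envelope structure and cross-linking, 18 were lower and 1 was higher, with a median log2 ratio of -1.90. Kprp, given above, is among the 18. Krtdap stood at 140.2 FPKM (labelled Aire-KO) and 1087 FPKM (labelled WT) and Dmkn at 100.5 FPKM in the Aire-KO-labelled library and 649 FPKM in the WT-labelled library, both secreted by differentiating keratinocytes. Cdsn, the adhesive corneodesmosin, stood at 1.56 FPKM (labelled Aire-KO) and 18.2 FPKM (labelled WT), and Dsg1a, a desmosomal cadherin, was the higher gene at 67.8 FPKM (labelled Aire-KO) and 23.98 FPKM (labelled WT). Of 23 genes of epidermal proteases and barrier lipids, 20 were lower and none higher, with a median of -2.62. Asprv1, which cleaves profilaggrin, stood at 162.5 FPKM (labelled Aire-KO) and 495.3 FPKM (labelled WT). The lowest ratios were those of 2 proteases, the kallikrein Klk6 at 1.71 FPKM (labelled Aire-KO) and 47.7 FPKM (labelled WT) and Casp14, a caspase of cornifying cells, at 0.248 FPKM (labelled Aire-KO) and 7.55 FPKM (labelled WT).

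Most keratins of squamous epithelium were lower. Of 15 epidermal keratins 12 were lower and none higher, with a median of -3.28. Krt17, known from hair follicles and wounded skin, stood at 2325 FPKM (labelled Aire-KO) and 2159 FPKM (labelled WT), and Krt5 of the basal layer at 599 FPKM (labelled Aire-KO) and 661 FPKM (labelled WT), both neither. Krt1 of the layers above stood at 1.49 FPKM (labelled Aire-KO) and 99.9 FPKM (labelled WT), and Krt13 of mucosal epithelium at 0.0323 FPKM (labelled Aire-KO) and 31.0 FPKM (labelled WT). Of 30 transcription regulators of keratinocytes, 13 were lower and none higher, with a median of -0.89. The AP-1 subunits Junb, at 761 FPKM (labelled Aire-KO) and 601 FPKM (labelled WT), and Jun, at 400 FPKM (labelled Aire-KO) and 425 FPKM (labelled WT), were neither. The AP-1 subunits Fosl1 and Fosl2 were lower. Fosl1 stood at 2.52 FPKM (labelled Aire-KO) and 10.05 FPKM (labelled WT), and Fosl2 at 13.97 FPKM (labelled Aire-KO) and 29.17 FPKM (labelled WT). Hopx stood at 11.04 FPKM (labelled Aire-KO) and 93.1 FPKM (labelled WT) and Klf5 at 5.01 FPKM (labelled Aire-KO) and 25.7 FPKM (labelled WT).

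S100 genes on other chromosomes and known S100 partners mostly lay within 2-fold. Of 4 genes listed from other chromosomes, S100pbp, which was neither, encodes an S100-binding protein and is not itself an S100 gene. S100b was lower at 0.297 FPKM in the Aire-KO-labelled library and 3.19 FPKM in the WT-labelled library. S100g stood at 1005 FPKM (labelled Aire-KO) and 532 FPKM (labelled WT) and S100z at 11.4 FPKM (labelled Aire-KO) and 9.68 FPKM (labelled WT). Of 16 partners and receptors 3 were lower and none higher, with a median of -0.06. Anxa5 stood at 620 FPKM (labelled Aire-KO) and 516 FPKM (labelled WT), Anxa1 was lower at 243 FPKM (labelled Aire-KO) and 495 FPKM (labelled WT), Cd36 was lower at 0.455 FPKM (labelled Aire-KO) and 4.09 FPKM (labelled WT) and Fgfr1 was lower at 0.573 FPKM (labelled Aire-KO) and 1.30 FPKM (labelled WT). Over all 112 measured genes of these lists, 68 were lower and 1 was higher, against the same 20.5% and 7.09% of all genes measured.

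**Figure D5:**
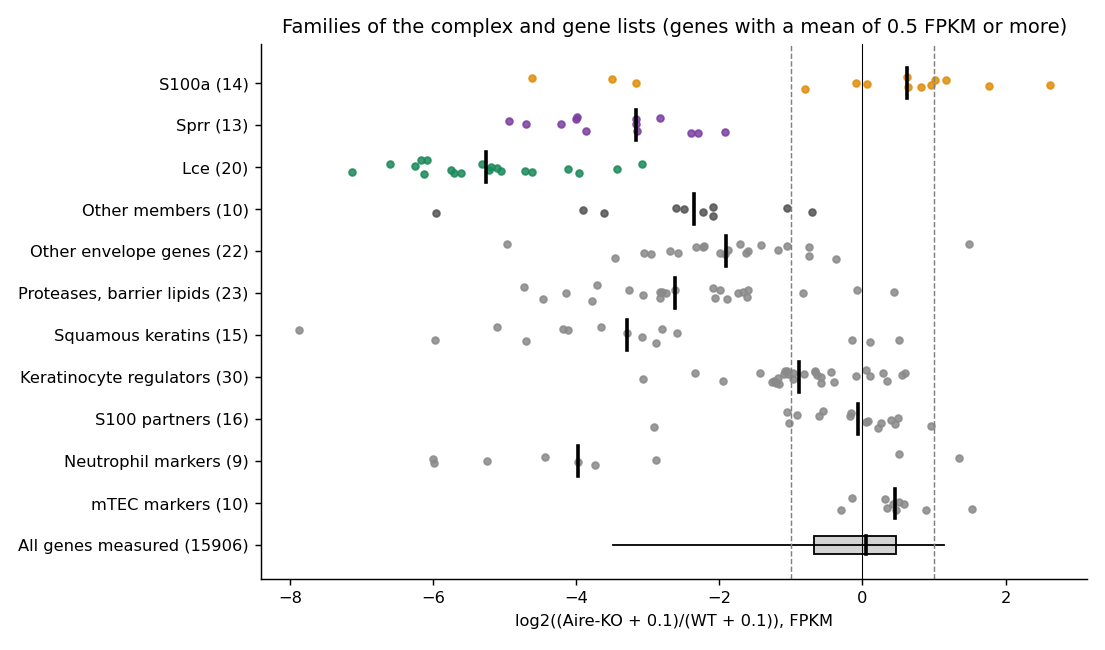
Log2 ratios (Aire-KO-labelled library over WT-labelled library, with 0.1 FPKM added) of each gene, by family of the complex and by list of related genes, with the median of each as a bar. For all genes the box spans the middle 50% and the line from the lowest 5% to the highest 5% (-3.49 to 1.14). The Lce, Sprr, keratin and envelope sets lie mostly below -1, and the medians of the S100a genes and the S100 partners are 0.63 and -0.06.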

How the data were processed

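RNA from 2 libraries, 1 per genotype, was analysed from the tables of genes and transcripts that the authors deposited, whose expression values are FPKM. TopHat2, Cuffdiff and build mm10 are named per the submitters' processing notes, with versions not given in the sources used here. The authors' p-value and q-value columns set 1 library against the other rather than genotypes, and are credited to them where quoted. No column of per-sample values was left unused (0). In 5 gene rows with no estimate, values were treated as missing. FPKM divides by library total, so abundant genes that differ shift the rest, and genes with near-identical copies may have had shared reads divided between them.

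Ratios used a pseudocount of 0.1 FPKM, a minimum mean of 0.5 FPKM and a 2-fold rule of size, with no test. Fragments were estimated from the steps of low FPKM values, with GENCODE M21 transcript lengths less a fitted 170 bp. Of 530 low values in the Aire-KO-labelled library and 192 in the WT-labelled library, 78.9% and 77.6% lay within 0.1 of a whole fragment, on a step fitted to the same values. No fragments were estimated for transcripts under 400 bp. Intervals and floors cover counting error only, because amplified fragments carry no molecular identifier and need not be independent. Shared sequence was counted in windows of 100 bases. Promoters came from RefSeq, GRCm38.p6. The work used Python 3.11.15, pandas 2.3.3, numpy 2.4.6, scipy 1.17.1 and matplotlib 3.10.9, and the steps were tested on simulated data.

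The genes of the complex and the lists were chosen with earlier results of these data known. Every gene of the complex is named. Of each pathway list the 2 most abundant genes and up to 2 lowest and 2 highest ratios past the 2-fold rule are named, and of other genes inside the complex the 3 lowest and 3 highest; for the marker lists counts and sums are given with a few examples. One gene that this rule names is not reported here. Fosl1, Fosl2 and S100pbp are named beyond the rule. Alternatives were other pseudocounts, minimums, fold rules, scalings and the transcript table. Leaving out genes by protein identity was planned and not run, and shared windows were used in its place.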

Additional observations from a re-analysis of the deposited data

How the results depend on the processing

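No paired analysis was possible because there was 1 library per genotype, so no library could be left out either. The number of genes of the complex called lower (45 of 57) stayed within 1.5 times under the other pseudocounts, minimums, fold rule, scalings and the transcript table. At 4-fold 1 gene was higher. With transcript sums 5 genes were higher, because Sprr2a2 then reached the minimum and was higher. Split by family after the data were seen, with the gene rows as reported, 3 S100a genes were lower and 0 genes outside the S100a family were higher. The median log2 ratio of -3.51 became -2.12 with a pseudocount of 1 FPKM and lay between -3.76 and -3.09 under the other alternatives. Among the alternative values of the 57 measured genes, 283 kept their call as lower, higher or neither, and 2 did not, both of S100a4. Genes below the minimum as reported, Sprr2a2 among them, are not in this count. No gene called lower or higher changed sign. S100a1, which was neither, went from a log2 ratio of 0.058 to -0.017 with the same FPKM total in both libraries.

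Log2 ratios of summed families moved past their counting interval as follows. With the same FPKM total in both libraries, the fused-type sum was -1.19, the S100a sum 0.27 and the Sprr1 sum -2.41, against -1.12, 0.34 and -2.34 as reported. With ratios centred on the median of all genes, the fused-type sum was -1.17 and the S100a sum 0.29. With transcript sums, the Sprr2 sum was -3.65 against -3.86, since Sprr2a2 then counts its other copy. Of the genes of the pathway lists 40 were lower and 0 higher at 4-fold. Of other genes inside the complex, 3 were lower at a minimum of 2 FPKM. Of the 10 rows on each side of it, chosen after seeing the data, 2 were lower and 1 higher. Depth limits the Lce genes most: 7 genes of the complex rest on 1 to 3 fragments in the Aire-KO-labelled library.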

Other observations

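The rows just outside the complex gave unlike values on its sides. Before S100a1, 9 of 10 rows were measured, with 7 neither, Slc27a3 higher at 12.4 FPKM in the Aire-KO-labelled library and 6.08 FPKM in the WT-labelled library, and Npr1 lower at 0.194 FPKM in the Aire-KO-labelled library and 1.08 FPKM in the WT-labelled library. Their median log2 ratio was 0.32. Beyond S100a10, 2 of 10 rows were measured. Them5, an acyl-CoA thioesterase gene, was lower at 0.358 FPKM in the Aire-KO-labelled library and 12.3 FPKM in the WT-labelled library. Them4 stood at 5.37 FPKM in the Aire-KO-labelled library and 6.61 FPKM in the WT-labelled library. Tdpoz1, Tdpoz2, Tdpoz3 and Tdpoz4, below the minimum, were each listed at 0 in the Aire-KO-labelled library and stood between 0.464 and 0.662 FPKM in the WT-labelled library.

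Of the 60 genes of the complex, the authors' deposited table calls 1 different, Lce1a1, with a q-value of 0.0155. For S100a8 and S100a9 the authors' deposited table gives a q-value of 0.125.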
